A study of Mus musculus with 6 samples.

Results

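The regulators of fatty acid oxidation described here are 10 genes of 19935 measured in mouse splenic B cells. They are the PGC-1 family coactivators Ppargc1a, Ppargc1b and Pprc1, the nuclear receptors Ppara, Ppard, Pparg, Rxra and Esrra, and the transcription factors Nrf1 and Tfam. The set was formed by function, and it was put together knowing that Ppargc1a and Pprc1 were higher in CD37KO than in WT B cells. For this reason the differences of these 10 genes between the genotypes are given as a description. Counts of calls and intervals from the fit over all genes stand beside them for orientation and support nothing. Where several probe sets name a gene alone, the one with the highest mean over all arrays stands for it.

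RNA came from primary B cells of the spleen, taken from 3 WT and 3 CD37KO mice, with 1 Affymetrix array per mouse and no treatment. The mice were littermates on the C57BL/6J background, with an age of 3 months in the labels and an older age in the methods. CD37KO mice lack Cd37, a tetraspanin of the B cell membrane, in every cell of the body, so their B cells also matured in a mouse without it. The cells were enriched by removing CD43-positive cells, and staining for B220, a B cell marker, served to assess purity, which was not complete.

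PPARs are receptors inside the nucleus that bind fatty acids and their derivatives and pair with RXRs on DNA to switch on genes of fat uptake, storage and oxidation. PGC-1 coactivators do not bind DNA themselves; they dock on PPARs, on ERRα (Esrra) and on NRF1 and raise the output of mitochondrial genes. NRF1 acts on nuclear genes of the respiratory chain and on Tfam, whose protein enters mitochondria to pack and transcribe their DNA. In fat tissue and muscle these genes set the capacity for fat oxidation, and in the spleen PPARγ and RXRα are also known from macrophages.

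Levels are log2 expression values, so a difference of 1 is a doubling. They come from different probe sets, and the level of one gene was therefore not set against that of another. The background was 5.77, the 95th percentile of the mean levels of 1015 olfactory receptor genes, which B cells do not use. In all 6 arrays, 9874 genes lay above it, and the median of all probe sets was between 6.01 and 6.10 in each array. Cd37 itself, the check of the labels, had a mean of 11.97 ± 0.13 in WT arrays and 8.16 ± 0.011 in CD37KO arrays (SD over 3 mice each). All 10 B cell markers measured were above background in every array, and their mean level lay between 11.6 and 11.7. Cells other than B cells also left RNA. The mean of the 14 neutrophil markers was between 5.88 and 6.10 in WT and between 6.39 and 7.65 in CD37KO arrays. The mean of 14 macrophage and monocyte markers was between 8.63 and 9.43 in WT and between 8.38 and 9.54 in CD37KO arrays. T cell markers averaged 5.66 to 5.82. Of the 7 measured, Cd3e and Cd4 were above background in all arrays, and Cd3d and Cd3g were below it in all. Of the 5 fat cell markers, Adipoq, Plin1, Cidec and Lep were below background in every array. Fabp4 was above it in 3 arrays, with 5.78, 5.46 and 5.51 in WT and 5.86, 5.43 and 5.88 in CD37KO. In a bulk sample, fewer cells of a type and less RNA per cell cannot be told apart.

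The promoter windows are shown for the genes whose values differed most between the genotypes, Ppargc1a and Pprc1, and for Tfam, the mitochondrial factor for which a sequence match was found. Each runs from 250 bases before to 50 bases after a transcription start in RefSeq on the GRCm38.p6 assembly. The Ppargc1a window is chr5:51567676-51567975 on the minus strand, and capitals mark CGTCA, the reverse complement of TGACG, the shorter form of the cAMP response element (CRE). The Pprc1 window is chr19:46056289-46056588 on the plus strand and holds none of the motifs searched. The Tfam window is chr10:71237995-71238294 on the minus strand, and capitals mark CCGGAAG, a site of ETS factors such as GABP.
Ppargc1a: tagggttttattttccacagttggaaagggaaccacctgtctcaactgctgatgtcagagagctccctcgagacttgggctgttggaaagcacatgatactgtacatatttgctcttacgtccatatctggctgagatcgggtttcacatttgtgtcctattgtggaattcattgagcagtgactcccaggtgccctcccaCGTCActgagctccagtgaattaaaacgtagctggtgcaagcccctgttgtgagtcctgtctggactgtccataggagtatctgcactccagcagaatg
Pprc1: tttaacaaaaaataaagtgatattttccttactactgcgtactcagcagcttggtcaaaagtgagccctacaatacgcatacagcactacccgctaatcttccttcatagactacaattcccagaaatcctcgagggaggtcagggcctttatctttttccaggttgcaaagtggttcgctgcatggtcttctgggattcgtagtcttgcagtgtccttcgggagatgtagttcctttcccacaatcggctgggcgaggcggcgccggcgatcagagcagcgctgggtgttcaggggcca
Tfam: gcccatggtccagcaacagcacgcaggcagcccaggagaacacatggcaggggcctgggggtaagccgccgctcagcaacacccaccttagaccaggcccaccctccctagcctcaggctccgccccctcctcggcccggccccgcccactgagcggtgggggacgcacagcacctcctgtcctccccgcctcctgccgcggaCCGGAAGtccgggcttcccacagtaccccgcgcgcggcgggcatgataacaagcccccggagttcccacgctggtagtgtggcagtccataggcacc

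Among the regulators, 13 windows of 9 genes were searched. Windows on chromosome 18 were left out there, so Ppargc1b, which lies on it, was not searched. Motifs were searched on both strands in these 13 windows and in all 32851 promoter windows of the reference, with no chromosome left out. The CRE, TGACGTCA, stood in 1.79% of all windows and in none of the 13 windows of the regulators. Its shorter form TGACG, which lies within the full CRE, stood in 20.8% of all windows. Of the 13 windows it stood in 3, those of Ppargc1a, Ppara and Ppard. In Ppargc1a it covered positions -49 to -45, where -1 is the last base before the start. The ETS site CCGGAAG stood in 8.86% of all windows and at -47 to -41 of Tfam alone among the 9 regulators searched. The NRF1 site, GCGCA and GCGC with any base between them, stood in 4.60% of all windows. Its single match among the 9 regulators searched lay at -31 to -22 of Ppara. The ERR site TNAAGGTCA, the E-box CACGTG and the PPAR site, AGGTCA repeated after any single base, were not found in these 13 windows, and stood in 1.28%, 7.15% and 0.0396% of all windows. The matches are a description of the sequence. Which transcription start the B cells used was not measured.

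Most of these regulators gave a signal above background in the B cell isolates of both genotypes. In 9 of the 10 genes the level was above background in all 6 arrays, and Ppara was below it in all 6. A level above background does not by itself show the normal transcript, since Cd37 was still at 8.16 in CD37KO arrays. The mean was higher in CD37KO for 5 genes and lower for the other 5. Ppargc1a and Pprc1 were furthest apart, by 0.41 and 0.31 on the log2 scale. In 7 of the 10 genes the group means differed by less than 0.15. The median difference was 0.053 over the regulators and -0.019 over all genes, and the median size of a difference was 0.117 and 0.065. Over the 9874 genes above background in all arrays these medians were 0.017 and 0.068. No regulator was called after adjustment over all genes in limma, where 0.0552% of genes were called, 0.0251% higher and 0.0301% lower. Without adjustment 2 of the 10 were called higher, against 2.96% of all genes, and none was called lower, against 2.99%. In 3 of the 10, Ppargc1a, Pprc1 and Esrra, all CD37KO arrays were above all WT arrays, which held for 4.33% of all genes, and in none were all below, against 7.57%. Since the set was built on this contrast, nothing is read from these counts.

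**Figure D1:**
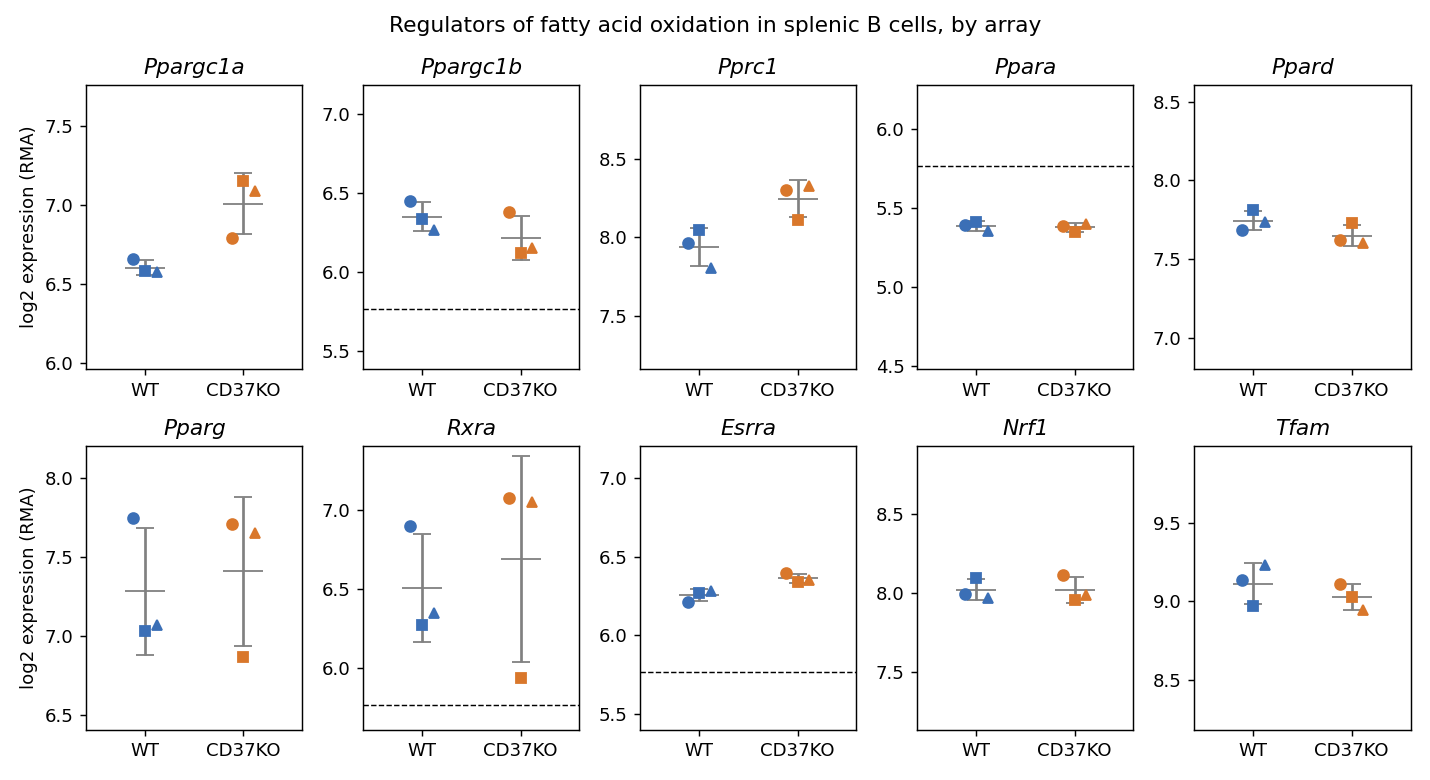
Log2 expression of the 10 regulators in each array, with 1 panel per gene and y axes of equal span. Points are single mice (WT blue, CD37KO orange; circle, square and triangle are replicates 1, 2 and 3), grey marks are the mean and SD of 3 mice, and the dashed line, drawn where a panel reaches it, is the background of 5.77. Ppargc1a, Pprc1 and Esrra have no overlap between the groups, Pparg and Rxra spread most within a genotype, and Ppara lies under the dashed line.

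Ppargc1a (Entrez Gene 19017) encodes PGC-1α, the coactivator that cold, fasting and exercise induce in fat tissue, liver and muscle. Its level was 6.66, 6.58 and 6.57 in the WT arrays and 6.79, 7.15 and 7.09 in the CD37KO arrays. The groups did not overlap, and the lowest CD37KO array, replicate 1, stood 0.13 above the highest WT array. The means of WT and CD37KO were 6.60 ± 0.047 and 7.01 ± 0.19 (SD, n = 3 each), a difference of 0.41 (standard error 0.096) or 1.33-fold. Leaving out 1 array at a time gave 0.34, without CD37KO replicate 2, to 0.52, without CD37KO replicate 1.

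A second probe set names Ppargc1a alone, and it was dimmer. There the WT arrays were at 6.56, 6.45 and 6.49 and the CD37KO arrays at 6.61, 6.37 and 6.91. The groups overlapped, since CD37KO replicate 2, the highest array on the brighter probe set, was the lowest of all 6 on the dimmer one. The difference was 0.13 (standard error 0.16 from the group SDs), and the mean of both probe sets gave 0.27. CD37KO replicates 1 and 3 were above all WT arrays on both probe sets. The exons that either probe set covers were not looked up here.

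**Figure D2:**
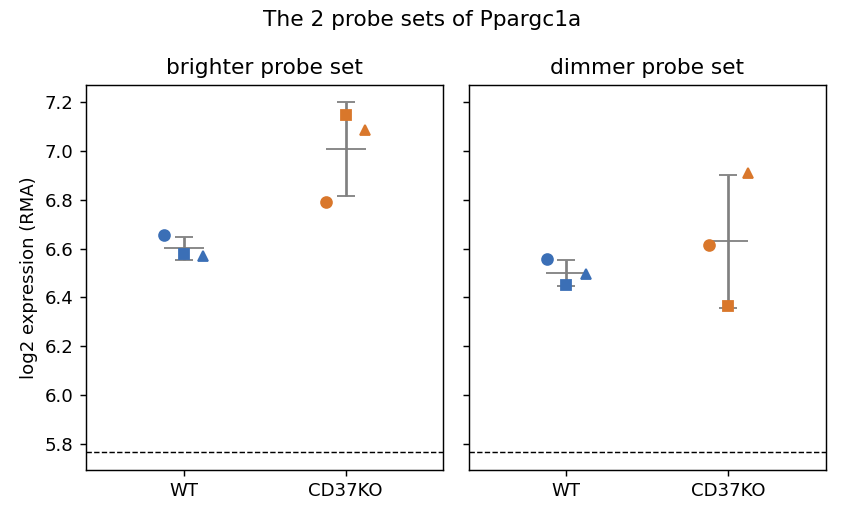
Log2 expression of Ppargc1a on its brighter and its dimmer probe set, with the same marks for arrays, means and SDs as in the plot of the regulators. The CD37KO arrays lie above all WT arrays on the brighter probe set, with a difference of 0.41, and overlap with them on the dimmer one, with a difference of 0.13.

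Pprc1 (Entrez Gene 226169) encodes PRC, the PGC-1 family member known for serving cell growth through NRF1. Its level was 7.97, 8.05 and 7.81 in WT and 8.30, 8.11 and 8.32 in CD37KO. All CD37KO arrays were above all WT arrays, with 0.066 between the nearest pair. The means were 7.94 ± 0.12 (SD, n = 3) and 8.25 ± 0.12 (SD, n = 3), a difference of 0.31 (standard error 0.087) or 1.24-fold. Leaving out 1 array at a time gave 0.24, without WT replicate 3, to 0.37, without CD37KO replicate 2.

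The neutrophil list also stood apart between the genotypes. The mean of the neutrophil list was 6.06, 5.88 and 6.10 in WT and 7.65, 6.39 and 7.01 in CD37KO, in order of replicate. Ngp, a granule protein of neutrophil precursors, was at 8.34, 8.13 and 8.46 in WT and 11.09, 9.48 and 10.56 in CD37KO. Of the 14 markers, 12 passed an unadjusted p under 0.05 upward, against 2.96% of all genes, and none passed after adjustment in limma, 5 were above background in every array, and Prtn3 was below it in all. Within CD37KO, replicate 1 held the most neutrophil RNA and was the lowest array for Ppargc1a on the brighter probe set. Replicate 2 held the least neutrophil RNA and was the lowest for Pprc1 and for Ppargc1a on the dimmer probe set. The part of neutrophil RNA in the values of Ppargc1a and Pprc1 was not tested.

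Ppargc1b (Entrez Gene 170826) encodes PGC-1β, the close relative of PGC-1α that sustains mitochondrial genes at rest. Its level was 6.45, 6.34 and 6.26 in WT and 6.38, 6.12 and 6.15 in CD37KO. The groups overlapped, and unlike its relatives it had the lower mean in CD37KO. The means were 6.35 ± 0.094 (SD, n = 3) and 6.22 ± 0.14 (SD, n = 3), a difference of -0.13 (standard error 0.088), which ran from -0.22 to -0.08 as single arrays were left out.

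Among the PPARs, Pparg spread widely between mice of 1 genotype while Ppard and Ppara did not. Ppara (Entrez Gene 19013) encodes the PPAR that drives fat oxidation in liver and heart. Its level lay between 5.35 and 5.41 in WT and between 5.35 and 5.40 in CD37KO, below background in each array, so these arrays give no difference for it. Ppard (Entrez Gene 19015), the PPAR found in most tissues, was at 7.69, 7.81 and 7.74 in WT and 7.62, 7.73 and 7.60 in CD37KO. The groups overlapped, and the difference of the means, 7.75 ± 0.061 and 7.65 ± 0.069 (SD, n = 3 each), was -0.10 (standard error 0.066).

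Pparg (Entrez Gene 19016) encodes PPARγ, the master factor of fat cells, which macrophages also use. Its level was 7.75, 7.03 and 7.07 in WT and 7.71, 6.87 and 7.65 in CD37KO. WT replicate 1 and CD37KO replicates 1 and 3 were high and the other 3 arrays were low, so the split ran through both genotypes. The means were 7.28 ± 0.40 (SD, n = 3) and 7.41 ± 0.47 (SD, n = 3), a difference of 0.13 (standard error 0.25). The difference was 0.40 without CD37KO replicate 2 and -0.02 without CD37KO replicate 1.

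Rxra (Entrez Gene 20181) encodes RXRα, the partner that PPARs need to bind DNA. Its level was 6.90, 6.27 and 6.35 in WT and 7.08, 5.94 and 7.06 in CD37KO. The same 3 arrays were high as for Pparg, and CD37KO replicate 2 was the lowest. The means were 6.51 ± 0.34 (SD, n = 3) and 6.69 ± 0.65 (SD, n = 3), a difference of 0.18 (standard error 0.30), which ran from -0.01 without CD37KO replicate 1 to 0.56 without CD37KO replicate 2.

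The spread of these receptors within a genotype was among the largest on the arrays. Of the genes above background in all arrays, 98.2% had a smaller within-genotype SD than Pparg and 98.8% a smaller one than Rxra, against 71.8% for Ppargc1a, 61.3% for Pprc1, 19.1% for Ppard and 2.33% for Esrra. The mean of the macrophage and monocyte list was 9.43, 8.63 and 8.75 in WT and 9.49, 8.38 and 9.54 in CD37KO. The same 3 arrays were high in it. They were also high in the erythroblast list, whose mean was 5.97, 5.64 and 5.72 in WT and 6.08, 5.62 and 6.09 in CD37KO. Of that list 4 of 7 genes were measured, and 1 was above background in all arrays. Spic, the factor that forms red pulp macrophages, was at 9.19, 8.28 and 8.40 in WT and 9.38, 7.89 and 9.31 in CD37KO. Vcam1, an adhesion molecule of these macrophages, was at 10.83, 9.97 and 10.05 in WT and 10.93, 9.47 and 11.03 in CD37KO. Of the 14 macrophage and monocyte markers, 12 were above background in all arrays, and Marco was below it in all.

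The size of the split was also alike in Pparg, Rxra and the macrophage list. WT replicate 1 exceeded the mean of the other WT arrays by 0.69 in Pparg, 0.59 in Rxra and 0.74 in the macrophage list. CD37KO replicate 2 was under the mean of the other CD37KO arrays by 0.81 in Pparg, 1.13 in Rxra and 1.13 in the list. In Ppargc1a the corresponding steps were 0.08 and -0.21, and in Pprc1 0.04 and 0.20. The steps of Ppargc1a are those of its brighter probe set, and on the dimmer one WT replicate 1 was the highest WT array and CD37KO replicate 2 the lowest CD37KO array, as in the macrophage list. Pprc1 was also lowest in CD37KO replicate 2 among the CD37KO arrays. The order with WT replicate 1 highest in WT and CD37KO replicate 2 lowest in CD37KO held for 12 of 14 macrophage markers (85.7%), 4 of 14 neutrophil markers (28.6%), 3 of 10 regulators (30.0%) and 1427 of 9874 genes above background (14.5%). The regulators with this order were Pparg, Rxra and Ppargc1b. These shares describe 6 arrays and were not compared by a test. The part of macrophage or erythroblast RNA in the levels of Pparg and Rxra was not tested.

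**Figure D3:**
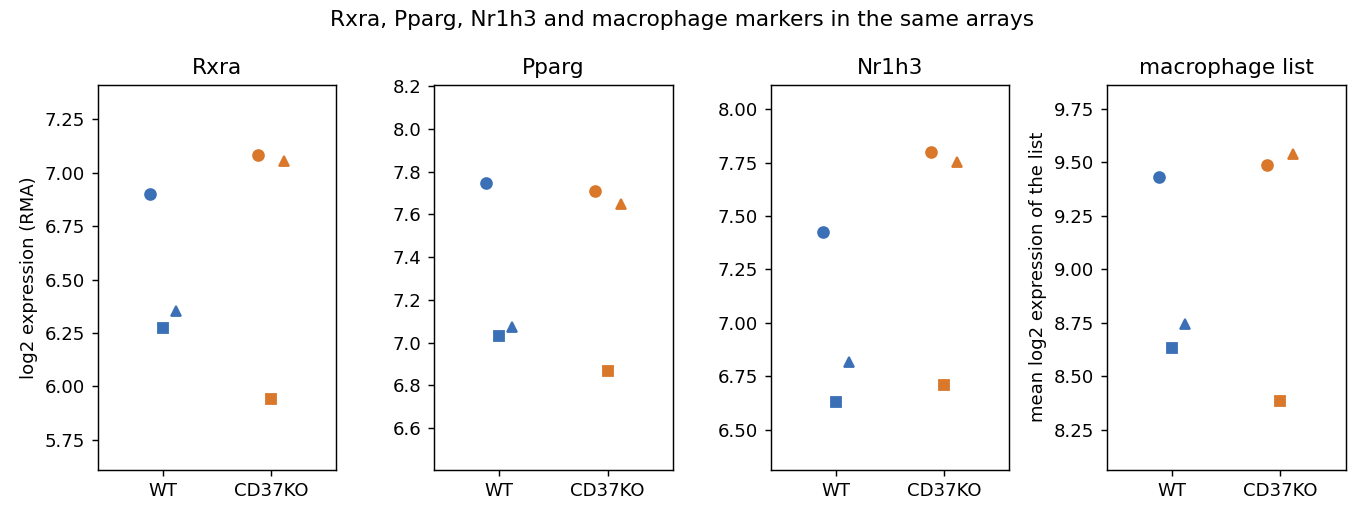
Log2 levels per array of Rxra, Pparg and Nr1h3, a sterol receptor gene, beside the mean of the macrophage list (WT blue, CD37KO orange; circle, square and triangle are replicates 1, 2 and 3). WT replicate 1 and CD37KO replicates 1 and 3 are high in each panel, while CD37KO replicate 2 is at 5.94 in Rxra, 6.87 in Pparg and 8.38 in the list. Each y axis spans the same range of log2 values.

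Esrra, Nrf1 and Tfam, through which PGC-1 coactivators reach mitochondrial genes, were close in both genotypes. Esrra (Entrez Gene 26379) encodes ERRα, an orphan receptor of oxidative metabolism. Its level was 6.21, 6.27 and 6.28 in WT and 6.39, 6.34 and 6.35 in CD37KO. The groups did not overlap, by 0.056, and the difference was 0.11 (standard error 0.058), or 1.08-fold, between means of 6.25 ± 0.037 and 6.36 ± 0.029 (SD, n = 3 each). It ran from 0.09 to 0.12 as single arrays were left out.

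Nrf1 (Entrez Gene 18181), the factor of respiratory chain genes, was at 7.99, 8.10 and 7.97 in WT and 8.11, 7.96 and 7.99 in CD37KO. The group means were both 8.02, and the 95% interval of the difference ran from -0.16 to 0.16. Tfam (Entrez Gene 21780), the mitochondrial DNA factor whose promoter is printed above, was at 9.13, 8.97 and 9.23 in WT and 9.11, 9.03 and 8.94 in CD37KO. The groups overlapped, with means of 9.11 ± 0.13 and 9.03 ± 0.085 (SD, n = 3 each) and a difference of -0.08 (standard error 0.083). The 95% interval of this difference ran from -0.28 to 0.11.

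To see which genes varied like the coactivators, the 9873 other genes above background were ranked by Pearson's r over the 6 arrays. These values share the genotype difference and rest on 6 points, so they describe these arrays and carry no p. For Ppargc1a the ranking rests on the brighter probe set, whose CD37KO arrays stand in another order than those of the dimmer one, and the closest genes were Phf11a (r = 0.996), Tmem35b (0.979), Tmem97 (0.972), Aldh1b1 (0.970) and Mx1 (0.969). Phf11a was at 7.13, 7.07 and 7.01 in WT and 7.37, 7.77 and 7.70 in CD37KO, with the same order of the CD37KO arrays as the brighter Ppargc1a probe set. Mx1, an interferon-induced gene, was at 6.49, 6.41 and 6.27 in WT and 6.48, 6.95 and 6.94 in CD37KO. For Mx1, CD37KO replicate 1 lay within the WT range. For Pprc1 the closest genes were Thumpd1 (r = 0.997), Psat1 (0.996), Eif2b4 (0.989), Ly75 (0.989) and Blvrb (0.984). Psat1, an enzyme of serine synthesis, was at 7.17, 7.23 and 7.08 in WT and 7.40, 7.25 and 7.43 in CD37KO. The differences of the 10 genes between CD37KO and WT ran from 0.13 in Ly75 to 0.55 in Phf11a. No gene was among the closest 5 of both coactivators.

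The genes around the regulators were taken as 7 lists of partners, upstream enzymes and targets chosen by function, of which 166 of 179 genes were measured and 122 were above background in all arrays. None of the 166 was called after adjustment over all genes in limma, where 0.0552% of genes were called, and the smallest adjusted p was 0.801. Before adjustment 6 of the 166 had a p under 0.05, 3 in each direction, against 5.95% of all genes. All CD37KO arrays were above all WT arrays in 14 of the 166, against 4.33% of all genes, and below in 6, against 7.57%. The shares of all genes include dim ones, since 49.5% of all genes were above background in all arrays. Of the differences, 88 were above and 78 below 0. Their median was 0.0060, beside -0.019 over all genes and 0.017 over the genes above background in all arrays.

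**Figure D4:**
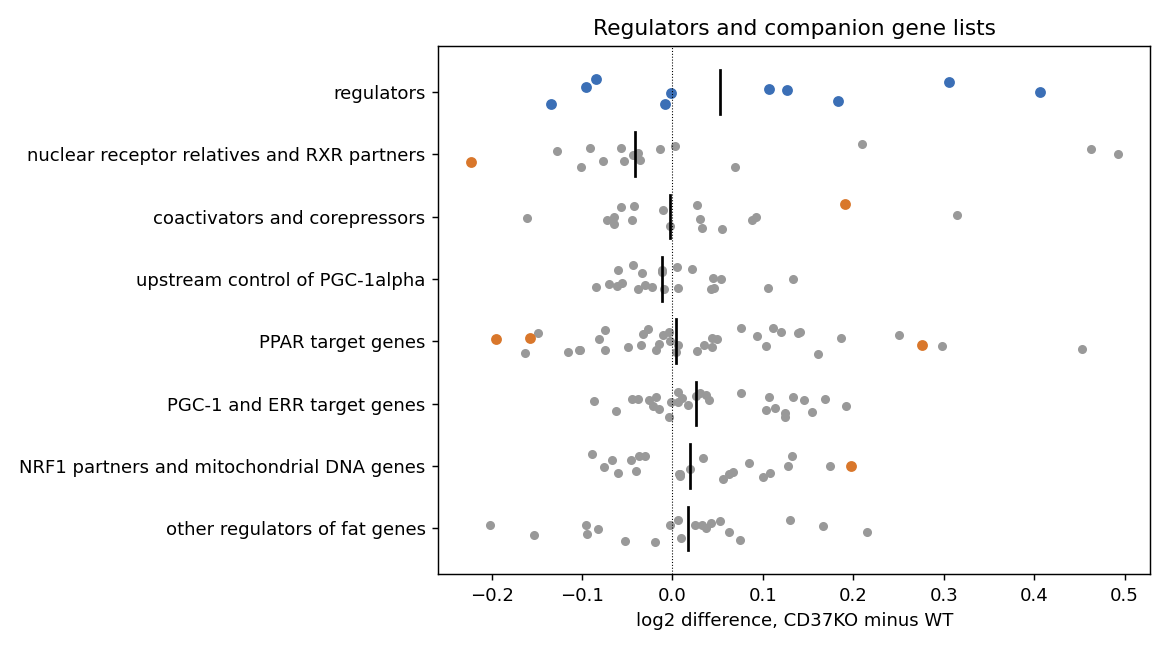
Difference of mean log2 expression, CD37KO minus WT, of each gene in the regulators and the 7 companion lists. Each point is 1 gene (blue regulators, orange companions with an unadjusted p under 0.05, grey others) and black bars are list medians, which run from -0.04 to 0.03 in the companion lists, while Ppargc1a and Pprc1 are at 0.41 and 0.31.

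Of the relatives of the PPARs and the other partners of RXR, 16 of 17 were measured and 5 were above background in all arrays, with a median difference of -0.04. None was called higher and 1 lower without adjustment, against 2.96% and 2.99% of all genes. Nr1h3, which encodes the sterol receptor LXRα, was at 7.43, 6.63 and 6.82 in WT and 7.80, 6.71 and 7.75 in CD37KO. The same 3 arrays were high as for Pparg and Rxra, and the difference was 0.46 (standard error 0.30). Nr1d1, the clock repressor REV-ERBα, differed by 0.49 (standard error 0.22, adjusted p = 0.801 in limma), with 8.03, 7.57 and 8.01 in WT and 8.85, 7.91 and 8.33 in CD37KO. Rara, Rxrb and Nr1d2 differed by 0.00, -0.05 and -0.10.

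Of the coactivators and corepressors, 17 of 19 were measured, with a median difference of -0.0024. Without adjustment 1 was higher and none lower, against 2.96% and 2.99% of all genes. Prmt1, an arginine methyltransferase that acts on PGC-1α, was at 7.71, 7.64 and 7.54 in WT and 7.82, 7.77 and 7.87 in CD37KO, a difference of 0.19 (standard error 0.069, adjusted p = 0.801 in limma). It lies on chromosome 7, 21 measured genes from Cd37, and the part of this position in the value was not tested. Lpin1, the phosphatase lipin 1 that also joins PGC-1α and PPARα, differed by 0.31 (standard error 0.14). Ncoa1, a coactivator of the SRC family, differed by -0.16 (standard error 0.077), and Med1, Crebbp and Ncoa3 by 0.09, -0.07 and -0.06.

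Upstream of PGC-1α, which AMPK, CREB with its CRTC partners, SIRT1 and MEF2 are known to induce or activate, all 22 genes were measured and 20 were above background in all arrays. None was called in either direction without adjustment, against 5.95% of all genes, and none had groups without overlap, against 11.9%. The median difference was -0.01. The AMPK subunits Prkab2, Prkab1 and Prkag1 differed by 0.13, 0.05 and -0.06. Nampt, the enzyme of NAD synthesis, differed by 0.11, the kinase Camkk2 by -0.07 and Crtc1 by -0.08.

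Of the PPAR target genes, 39 of 45 were measured and 19 were above background in all arrays, with a median difference of 0.0044. Without adjustment 1 was higher and 2 lower, against 2.96% and 2.99% of all genes. Slc25a20, the carrier that brings acylcarnitines into mitochondria, was at 6.82, 6.68 and 6.86 in WT and 7.07, 6.92 and 7.20 in CD37KO. Its groups did not overlap, with a difference of 0.28 (standard error 0.086, adjusted p = 0.801 in limma). Cd36, the fatty acid receptor of the cell membrane, was at 9.78, 9.81 and 9.90 in WT and 9.74, 9.68 and 9.60 in CD37KO, a difference of -0.16 (standard error 0.067, adjusted p = 0.801 in limma). Cpt1a, the enzyme that commits fatty acids to mitochondrial oxidation, was at 9.31, 9.34 and 9.19 in WT and 9.68, 9.16 and 9.75 in CD37KO. CD37KO replicate 2 lay below all WT arrays and the other CD37KO arrays above them, for a difference of 0.25 (standard error 0.14). The oxidation enzymes Acadl, Hadhb and Acaa2 differed by 0.16, -0.12 and -0.08.

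Plin2, the coat protein of lipid droplets, had the largest difference of the PPAR targets and was picked after its values were seen. It was at 7.61, 6.90 and 6.99 in WT and 7.87, 6.72 and 8.28 in CD37KO, a difference of 0.45 (standard error 0.36). Its high arrays were those of Pparg, Rxra and the macrophage list.

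Of the targets of PGC-1 and ERR, which are mostly enzymes of the citrate cycle and the respiratory chain, 29 of 31 were measured and 28 were above background in all arrays. None was called in either direction without adjustment, against 5.95% of all genes. The median difference was 0.03, and 4 genes had all CD37KO arrays above all WT arrays and none the reverse, against 4.33% and 7.57% of all genes. Cox5a, a subunit of cytochrome oxidase, was at 7.36, 7.35 and 7.48 in WT and 7.57, 7.51 and 7.55 in CD37KO, a difference of 0.15 (standard error 0.064). Cycs, cytochrome c, was at 11.37, 11.34 and 11.19 in WT and 11.49, 11.42 and 11.44 in CD37KO, a difference of 0.15 (standard error 0.069). Vegfa, the growth factor of blood vessels that PGC-1α induces in muscle, differed by 0.19 (standard error 0.092). The mitochondrial enzymes Etfb, Fh1 and Cs differed by -0.09, -0.06 and -0.04.

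Of the partners of NRF1 and the genes of mitochondrial DNA upkeep, 23 of 25 were measured and 22 were above background in all arrays. Their median difference was 0.02, and 1 was higher and none lower without adjustment, against 2.96% and 2.99% of all genes. Polg2, a subunit of the mitochondrial DNA polymerase, differed by 0.17 (standard error 0.098), and the protease Lonp1 and the transcription factor Mterf3 by 0.13 each. Mterf2, Mgme1 and Gabpb2 differed by -0.09, -0.08 and -0.06. Of the other regulators of fat genes, all 20 were measured, and the median difference was 0.02. Without adjustment none was called in either direction, against 5.95% of all genes. Insig2, which holds back the sterol regulators, differed by -0.20 (standard error 0.089), and Srebf1, the factor of fatty acid synthesis, by 0.13 (standard error 0.068). Mlx, Cebpb, Zfp423 and Usf1 differed by 0.22, 0.17, -0.15 and -0.09.

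The remaining companions with an unadjusted p under 0.05 did not meet the rule for named genes, since they were not above background in all arrays of either genotype, and were named after their values were seen. Tefm, an elongation factor of mitochondrial transcription, averaged 5.53 ± 0.040 in WT cells and 5.73 ± 0.082 in CD37KO cells (SD, n = 3 each). Esrrg, the receptor ERRγ, was at 5.37 ± 0.062 and 5.15 ± 0.10 (SD, n = 3 each), and Fgf21, a hormone that PPARα induces in liver, at 5.78 ± 0.024 and 5.58 ± 0.11 (SD, n = 3 each). Fgf21 lies on chromosome 7, 23 measured genes from Cd37.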

How the data were processed

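Total RNA of splenic B cells, depleted of CD43-positive cells, was hybridised to 6 Affymetrix mouse gene arrays, one for each of 3 WT and 3 CD37KO mice. For each probe set the authors deposited a log2 value. In the submitters' processing notes RMA (background correction, normalisation and summary of probes) and the build mm8 are named. The software that ran RMA was not given in the sources used here. RMA draws low signals together, so differences near background are understated. The raw scans were not used here.

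Of 35361 probe sets, 21780 pointed to 1 gene and 1605 to several, while the annotation used here gave no gene for 11976. Symbols were updated through the Entrez Gene ID, which was missing from the gene table for 91 probe sets. The brightest of a gene's own probe sets was kept, which gave 19935 genes with no filter on dim ones. CD37KO was compared with WT in limma 3.58.1 under R 4.3.3 (moderated two-sided test by lmFit with eBayes, p-values adjusted over all genes by Benjamini-Hochberg, threshold 0.05). The mice are separate animals, and their number limits the precision.

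The members, the companion lists and the marker lists were chosen with earlier results of these data known. Named were all 10 regulators, up to 3 companions higher and 3 lower per list by unadjusted p among those above background in all arrays of a genotype, and the 5 genes most like Ppargc1a and Pprc1. The alternatives were quantile normalisation, median centring, the mean over all probe sets of a gene, genes above background only, eBayes with a robust trend, array weights, ordinary least squares, a block for the replicate number, each array left out in turn, and other background percentiles (the 90th and 99th). The dimmer Ppargc1a probe set was added after seeing the data. Companion genes without a probe set of their own in the annotation used here were not analysed here. Promoter windows came from RefSeq on GRCm38.p6, and no other coordinates are given because the arrays' build differs. The proteins of the regulators were not compared here.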

Additional observations from a re-analysis of the deposited data

How the results depend on the processing

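The dimmer probe set put Ppargc1a at 0.13 in place of 0.41, and the other settings kept the sign of Ppargc1a, Ppargc1b, Pprc1, Ppard, Esrra and Tfam. The sign turned in Ppara (0.03 under quantile normalisation and also without CD37KO replicate 2 or WT replicate 2), in Pparg (-0.07 with array weights and -0.02 without CD37KO replicate 1), in Rxra (-0.01 without CD37KO replicate 1) and in 4 of 14 settings in Nrf1. With the 99th percentile as background 6 regulators were above it in all arrays, and with the 90th 9 were. The count of all genes changed, 11 in limma, with 5 higher and 6 lower, was 19 with array weights (9 and 10), 3 with ordinary least squares (2 and 1) and 4 with the replicate block (3 and 1). It was 4 to 14 when single arrays were left out (3 to 12 higher, the most without CD37KO replicate 2, and 1 to 2 lower). No companion was called after adjustment in any of the 14 alternatives. Without adjustment the companions called higher, 3, became 15 with array weights, 6 with ordinary least squares, 7 with the replicate block and 1 to 13 without single arrays (1 without CD37KO replicate 1, 5 without WT replicate 2 or 3, 13 without CD37KO replicate 2). Those called lower, also 3, became 6, 5 and 3 in these fits, 5 under quantile normalisation, 0 among genes above background and 0 to 5 without single arrays (0 without CD37KO replicate 3, 1 without WT replicate 1, 5 without CD37KO replicate 2). In the main fit 2.96% of all genes were called higher and 2.99% lower without adjustment. The shares of all genes in the other settings were not counted, so nothing about the companions is read from these counts. Of the named companions, Rara reversed to -0.012 with median centring and -0.0073 with quantile normalisation and ran from -0.027 to 0.050 without single arrays. Cs ran from -0.099 to 0.013 (the latter without WT replicate 2) and Etfb from -0.20 to 0.015 (the latter without CD37KO replicate 2). The cause was not tested. Arrays with the same replicate number did not deviate together throughout, with correlations of 0.30, 0.10 and -0.12 over 9874 genes, and WT replicate 1 was most like CD37KO replicate 3 (0.37), so the numbers were not taken to pair the mice. The regulators not above the 99th percentile lie close to background, where these values understate differences.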
